A study of Homo sapiens with 8 samples.

Results

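In MDA-MB-157 breast cancer cells, 22 of 38 genes of the ATF4 response and of amino acid supply had lower transcript levels with high glucose than with low glucose and 9 had higher levels, against 24.8% of all genes called lower and 22.0% called higher, and 33.3% and 33.6% of genes with a mean of at least 5 CPM. The 6 enzymes of serine synthesis and mitochondrial one-carbon metabolism all fell, with PHGDH 2.33-fold and ALDH1L2 2.70-fold lower. ASNS and the cystine carrier SLC7A11 fell 2.12-fold and 2.02-fold. SLC3A2, the partner chain of SLC7A11, rose 3.08-fold, and the phosphatase subunit PPP1R15A rose 2.26-fold. ATF4 itself rose 1.21-fold. The 38 genes were selected by symbol from a list of known ATF4-linked genes and of enzymes and carriers of amino acids, and all 38 were among the 21059 genes of the table. The list was chosen with earlier results of these data known, so its counts beside all genes are no independent result.

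ATF4 is a transcription factor whose messenger RNA is translated more efficiently when the translation factor eIF2 is phosphorylated. The kinases of eIF2 respond to amino acid shortage, to misfolded protein in the endoplasmic reticulum, to lack of heme or mitochondrial stress, and to double-stranded RNA, and the joint pathway is called the integrated stress response. ATF4 pairs with C/EBP family proteins at a composite DNA element and raises genes that make, import and spare amino acids, including serine, glycine, asparagine, proline and cysteine. Serine is made from an intermediate of glycolysis, so this branch draws on the carbon of glucose. Some breast cancers that lack the estrogen receptor carry extra copies of PHGDH or express it strongly.

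RNA sequencing was done on 8 libraries of MDA-MB-157, an established human breast cancer line labelled as estrogen receptor negative. Cells were cultured for 48 hours in medium holding glucose at 5 mM in the low glucose group and at 25 mM in the high glucose group, with 4 libraries each. Per the study's methods, cells of both groups were first conditioned in low glucose medium and then had no serum, and 25 mM was chosen to model hyperglycemia. The 8 libraries include none with mannitol or another osmolyte added, so more glucose and more osmolyte cannot be told apart here.

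Values are CPM, read counts that the authors scaled to a common library size. By estimate, the table rests on 9721648 to 12482546 reads in each library, and 3 reads corresponded to 0.212 to 0.267 CPM. ESR1, the estrogen receptor gene, was below that floor in all 8 libraries, at up to 0.170 CPM. The mesenchymal marker VIM was at 2856 to 4116 CPM, and the simple epithelial keratins KRT8 and KRT18 at 76.4 to 238 CPM. The epithelial adhesion genes EPCAM and CDH1 were at 0.330 to 7.62 CPM. The receptor genes PGR and ERBB2 were at 4.33 to 5.95 and 35.7 to 65.0 CPM, and GATA3 at 0 to 1.33 CPM. Of the other mesenchymal markers, CDH2 was at 52.1 to 78.2 CPM, FN1 at 2008 to 3650 CPM and SPARC at 11953 to 22037 CPM. With high glucose, EPCAM, GATA3 and CDH2 were called higher, and KRT8, KRT18, ERBB2, VIM, FN1 and SPARC lower. ESR1, PGR and CDH1 were not called. SPARC was 1.78-fold lower, with no overlap between the groups, but its call was lost in 9 of 13 alternatives of processing. Over these 13 its log2 change, high minus low, was -0.85 to -0.79. Of 6 markers of other cell types, PTPRC, CDH5, ALB and MLANA were at up to 0.595 CPM, PECAM1 at 0.911 to 2.84 CPM and CD68 at 9.38 to 14.3 CPM. The endothelial markers PECAM1 and CDH5 moved in opposite directions. PECAM1 was 2.13-fold higher with high glucose (adjusted p = 0.00775). CDH5 was called lower (adjusted p = 0.0116), from a mean of 0.278 to 0.0206 CPM, near or below the floor. PTPRC, CD68, ALB and MLANA were not called. The part of these markers in the results was not tested. The summed level of the 6 markers, most of it CD68, was 11.3 to 15.7 CPM with low glucose and 13.3 to 17.2 CPM with high glucose. High glucose replicate 1 stood apart. Across genes, its deviation from the mean of the other libraries of its group followed transcript length with a Spearman's rho of -0.649, against 0.248 to 0.465 for the other high glucose libraries and -0.133 to 0.0563 for the low glucose libraries. Among the high glucose libraries it had the highest value for 23 of the 38 genes and the lowest for 5. Nothing in the sources says that the replicates were separate experiments, and p-values measure only the spread between these libraries. In bulk RNA, fewer cells of a type and less RNA per cell cannot be told apart.

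High glucose was set against low glucose for each gene by limma on log2(CPM + 1), with p-values adjusted over all 21059 genes and a threshold of 0.05. A fold is the ratio of group means in CPM, and a log2 change is the fitted difference on the log2(CPM + 1) scale, high minus low, with its standard error. By this test 31 of the 38 genes were called, against 46.8% of all genes, and 31 were called without high glucose replicate 1. Calls were more frequent among well expressed genes, at 66.9% of those with a mean of at least 5 CPM. Of these, 33.3% of genes were called lower and 33.6% higher, the shares to set beside the counts by role below. Of the 38 genes, 37 reached that mean, and all 31 called genes were among these. The groups did not overlap for 30 of the 38, against 65.0% of genes of at least 5 CPM. A fall of at least 0.5 on the log2 scale was called for 15 of the 38 and a rise of that size for 6, against 17.5% and 16.1% of genes of at least 5 CPM. A fall of at least 1 was called for 7 and a rise of at least 1 for 2, against 3.60% and 3.28%. The median log2 change was -0.27 over the 38 genes and -0.01 over all genes tested. Of the 31 calls, 28 held under all 13 alternatives of processing, and those of SESN2, ALDH18A1 and SLC1A5 did not.

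**Figure D1:**
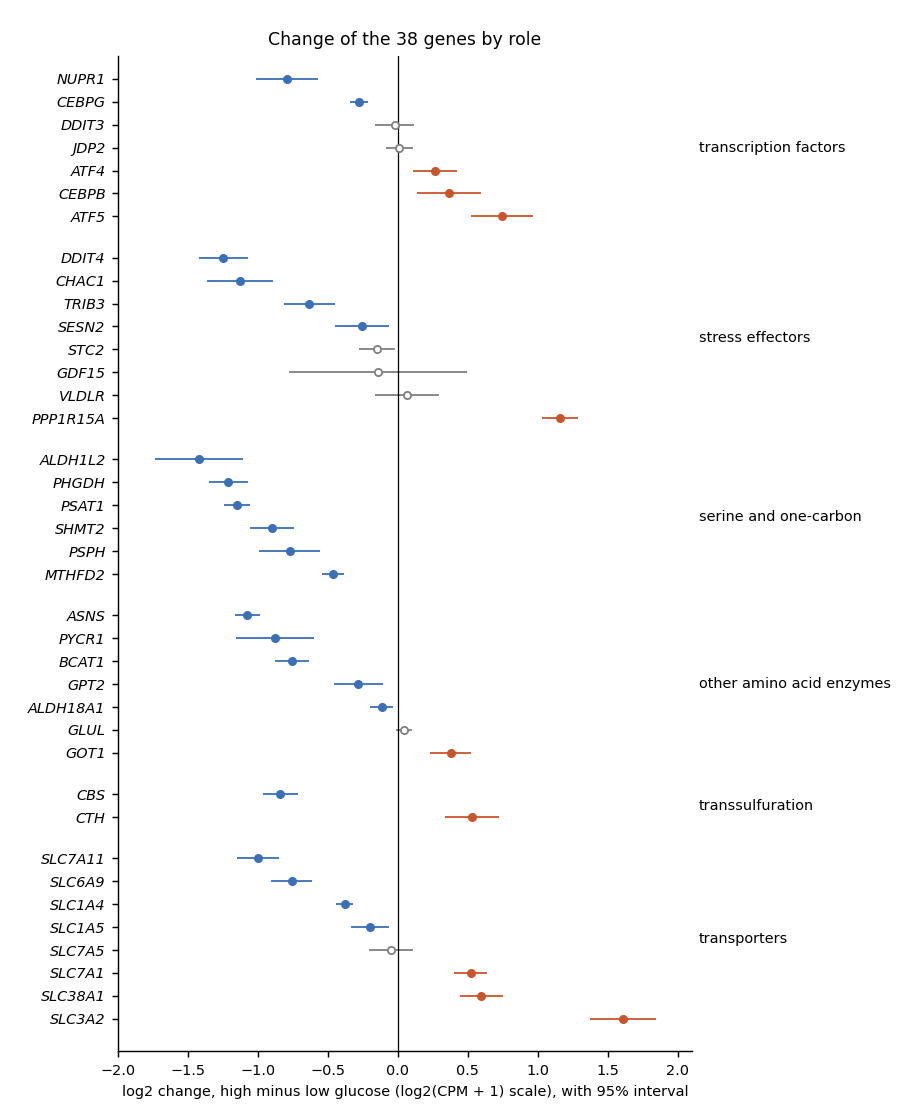
Log2 change of each of the 38 genes, high minus low glucose on the log2(CPM + 1) scale (x axis), by role. Points are fitted values with 95% intervals, filled where called (blue, lower; orange, higher) and open where not; all 6 serine and one-carbon enzymes lie below 0, and the transporters run from -1.002 to 1.61.

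The composite element to which ATF4 and C/EBP proteins bind was looked for as TGATGNAA, or TTNCATCA when read on the other strand, in promoters from RefSeq on GRCh38.p14, each 250 bases before to 50 after a transcript start. Of the 38 genes, 31 had a promoter there, with 55 promoters in all, and 11 of the 31 genes had a match, against 4.46% of 27305 genes in that table, or 11 of 55 promoters, against 3.62% of 35116 promoters. The list was made of known ATF4-linked genes, so this count is no independent result. Genes with a match did not share a direction: 6 were called lower, 4 higher and 1 was not called, and among the 20 without a match 9 were lower, 5 higher and 6 not called. The other 7 genes, ALDH1L2, GPT2, NUPR1, PSPH, PYCR1, SHMT2 and SLC7A11, were not searched, and all 7 were called lower. Stretches around the match are shown, with the match in capitals, for ASNS and CHAC1, which fell, and for GOT1, which rose, to set side by side the matches of genes that moved in opposite directions.
ASNS (chr7:97872423-97872522, minus strand): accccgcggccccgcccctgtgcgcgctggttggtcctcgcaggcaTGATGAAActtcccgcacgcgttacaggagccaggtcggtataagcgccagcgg
CHAC1 (chr15:40953221-40953315, plus strand): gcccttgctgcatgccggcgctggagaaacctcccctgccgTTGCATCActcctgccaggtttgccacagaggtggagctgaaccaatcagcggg
GOT1 (chr10:99430769-99430868, minus strand): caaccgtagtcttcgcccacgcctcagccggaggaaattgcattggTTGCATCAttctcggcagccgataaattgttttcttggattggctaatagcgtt
The first base of the match lay 68 bases before the start in ASNS, 209 in CHAC1 and 198 in GOT1. In the other genes called higher, it lay 4 bases before the start in SLC38A1, and 7 and 37 past it in SLC7A1 and SLC3A2. In the other genes called lower, it lay 7 bases before the start in SLC1A4, 42 in CEBPG, 48 in BCAT1 and 97 in SLC1A5. Position and direction were not tested against each other. CHAC1 and GOT1, which moved in opposite directions, held the same 8 letters on the same strand. Shorter stretches follow for BCAT1 and CEBPG, which fell, for SLC1A5, which had a small fall, and for JDP2, which was not called, since all held the identical letters TGATGCAA.
BCAT1 (chr12:24949131-24949160, minus strand): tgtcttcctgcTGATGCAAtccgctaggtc
CEBPG (chr19:33374060-33374089, plus strand): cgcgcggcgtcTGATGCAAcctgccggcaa
SLC1A5 (chr19:46784893-46784922, minus strand): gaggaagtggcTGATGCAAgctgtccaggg
JDP2 (chr14:75427995-75428021, plus strand): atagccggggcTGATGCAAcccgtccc
A match is a description of the sequence, and binding was not measured here.

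Among the 7 transcription factors, 3 rose, 2 fell and 2 were not called, with a median log2 change of 0.01. ATF4 (chr22:39520559-39522686), the central factor of the response, was at 255, 258, 257 and 243 CPM in low glucose replicates 1 to 4 and at 351, 286, 294 and 292 CPM in high glucose replicates 1 to 4. All high glucose libraries lay above all low glucose libraries, and high glucose replicate 1 was well above the other three. The means were 253 ± 6.91 and 306 ± 30.2 CPM (SD, n = 4 each), a log2 change of 0.27 ± 0.07 (adjusted p = 0.0140), and without high glucose replicate 1 the change was 0.20 (adjusted p = 9.44e-04, range over all 13 alternatives 5.66e-07 to 0.0411). Of the ATF4 transcript, 53.8% of 31-base words also occur in other genes, most in the pseudogene ATF4P3. ATF4 is controlled mainly through translation, and its protein was not measured here.

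ATF5 (chr19:49928906-49933935), a related factor with similar control of translation that is linked to mitochondrial stress, was at 10.1, 10.8, 10.5 and 9.83 CPM with low glucose and 20.8, 17.1, 19.3 and 15.2 CPM with high glucose, with every high glucose library above every low glucose library. Its rise was 1.75-fold (log2 change 0.75 ± 0.09, adjusted p = 5.66e-04). CEBPB, a C/EBP partner of ATF4, rose 1.31-fold (log2 change 0.36 ± 0.10, adjusted p = 0.0170). Of the exon bases, 9.8% for ATF5 and 12.6% for CEBPB overlap genes on the other strand. CEBPG, the C/EBP partner that shares many amino acid genes with ATF4, fell 1.22-fold (log2 change -0.28 ± 0.03, adjusted p = 1.77e-04). NUPR1 (chr16:28532708-28538974), a small stress-induced nuclear protein, was at 124, 141, 123 and 131 CPM with low glucose and 89.8, 69.4, 71.3 and 68.1 CPM with high glucose. The groups did not overlap, high glucose replicate 1 was the nearest to the low glucose range, and the fall was 1.74-fold (log2 change -0.79 ± 0.09, adjusted p = 4.21e-04). NUPR1 shares 27.9% of 31-base words with other genes.

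DDIT3 (chr12:57516588-57520517), which encodes the stress factor CHOP, was at 64.0, 60.3, 57.8 and 57.5 CPM with low glucose and 65.4, 58.8, 56.4 and 55.4 CPM with high glucose. The groups overlapped almost fully, with replicate 1 the highest of each group. Its log2 change was -0.02 ± 0.06 (95% interval -0.16 to 0.12, adjusted p = 0.799), a value that turned positive under another scaling, with the length trend removed, and without low glucose replicate 1 or high glucose replicate 4. Of its exon bases, 24.3% overlap MARS1 on the other strand and 11.6% overlap another annotated gene on the same strand. The use of strand in counting is not given for these libraries. JDP2, a repressor that binds related sites, was at 28.0 to 31.3 CPM over all libraries and was not called (95% interval -0.09 to 0.11).

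Of the 8 stress effectors and secreted products, 4 fell, 1 rose and 3 were not called. DDIT4 (chr10:72273924-72276036), an inhibitor of mTORC1 signaling also known as REDD1, was at 109, 119, 124 and 119 CPM with low glucose and 54.0, 50.1, 49.9 and 42.6 CPM with high glucose. Every high glucose library was below the lowest low glucose library by a wide margin, and the fall was 2.40-fold (log2 change -1.25 ± 0.07, adjusted p = 1.57e-05). CHAC1 (chr15:40953471-40956512), an enzyme that breaks down glutathione and whose promoter match is shown above, was at 12.7, 11.7, 13.8 and 11.9 CPM with low glucose and 6.14, 5.50, 4.54 and 4.62 CPM with high glucose. It fell 2.41-fold with no overlap (log2 change -1.13 ± 0.10, adjusted p = 1.05e-04). TRIB3 (chr20:380760-397559), a pseudokinase that binds ATF4 and dampens its activity, was at 63.9, 66.6, 60.7 and 62.0 CPM with low glucose and 46.7, 40.8, 36.0 and 38.8 CPM with high glucose. Its groups were also apart, at a 1.56-fold lower level (log2 change -0.63 ± 0.08, adjusted p = 4.62e-04).

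PPP1R15A (chr19:48872421-48876058), known as GADD34, directs a phosphatase to eIF2 and so closes the feedback loop of the response. It was at 55.6, 49.7, 50.2 and 47.9 CPM with low glucose and 116, 107, 121 and 115 CPM with high glucose, so that the lowest high glucose library was well above the highest low glucose library. The rise was 2.26-fold (log2 change 1.16 ± 0.05, adjusted p = 5.99e-06), opposite in direction to DDIT4, CHAC1 and TRIB3. SESN2, a leucine sensor that restrains mTORC1, was 1.20-fold lower (log2 change -0.26 ± 0.08, adjusted p = 0.0390), a call that was lost in 8 of the 13 alternatives. STC2, a secreted glycoprotein, was not called (95% interval -0.28 to -0.02, adjusted p = 0.0625), although its groups did not overlap. VLDLR, a lipoprotein receptor, was at 4.50 to 6.25 CPM and was not called (95% interval -0.16 to 0.30). GDF15, a secreted stress hormone, was at 0.711 to 2.31 CPM and was not called (95% interval -0.78 to 0.50).

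**Figure D2:**
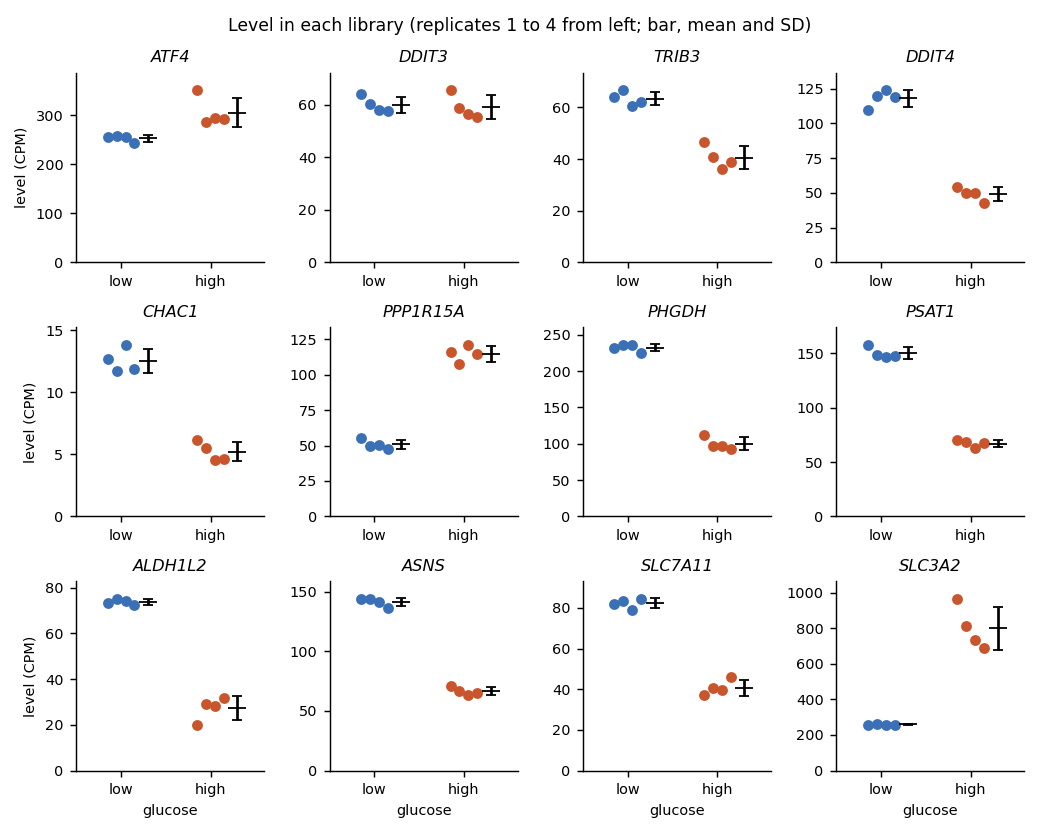
Level in CPM (y axes, from 0, scaled per gene) of 12 genes in each library, low glucose in blue and high glucose in orange, replicates 1 to 4 from left, with the mean and SD as bars. The groups overlap for DDIT3 and are apart for the other 11 genes; ATF4, PPP1R15A and SLC3A2 are higher with high glucose, and SLC3A2 runs from 687 to 966 CPM there.

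The 6 serine and one-carbon enzymes all fell, with a median log2 change of -1.03 and no overlap between the groups for any of the 6. Of all genes of at least 5 CPM, 33.3% were called lower and 65.0% had no overlap. PHGDH (chr1:119711934-119744215), the first enzyme of serine synthesis, was at 231, 236, 236 and 225 CPM with low glucose and 113, 96.7, 97.2 and 92.5 CPM with high glucose. Its levels with high glucose were all under the lowest low glucose value, with a log2 change of -1.21 ± 0.06 (adjusted p = 7.14e-06). PSAT1 (chr9:78297125-78330093), the aminotransferase of the second step, was at 158, 148, 147 and 147 CPM with low glucose and 69.9, 68.2, 62.5 and 67.5 CPM with high glucose. Low glucose replicate 1 stood a little above the other three, the groups were far apart, and the log2 change was -1.15 ± 0.04 (adjusted p = 2.20e-06). PSPH (chr7:56011064-56051444), the phosphatase that releases serine, was at 61.3, 57.2, 59.5 and 59.8 CPM with low glucose and 42.0, 32.8, 33.0 and 30.6 CPM with high glucose. High glucose replicate 1 was the highest of its group and still below all low glucose libraries, and the log2 change was -0.77 ± 0.09 (adjusted p = 4.34e-04). PSPH shares 19.1% and PSAT1 15.5% of 31-base words with other genes, most with the pseudogenes PSPHP1 and PSAT1P3.

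SHMT2 (chr12:57229711-57234935) splits serine into glycine and a one-carbon unit in mitochondria. It was at 235, 232, 228 and 240.2 CPM with low glucose and 143, 123, 120.5 and 115 CPM with high glucose. The groups were far apart, with a 1.87-fold fall (log2 change -0.90 ± 0.07, adjusted p = 3.94e-05). MTHFD2, which oxidizes the one-carbon unit on folate in mitochondria, fell 1.38-fold from 285 ± 5.33 to 206 ± 8.44 CPM (SD, n = 4 each), the smallest fall of the 6 (log2 change -0.46 ± 0.03, adjusted p = 3.14e-05). Of the MTHFD2 exon bases, 36.8% overlap genes on the other strand. ALDH1L2 (chr12:105019790-105084458), which releases the unit as carbon dioxide and makes NADPH, was at 73.1, 75.2, 74.2 and 72.6 CPM with low glucose and 19.9, 29.0, 28.5 and 31.9 CPM with high glucose. Its low glucose libraries were nearly equal, while high glucose replicate 1 was clearly the lowest. The log2 change was -1.42 ± 0.13 (adjusted p = 1.32e-04) and -1.28 without that library, and its transcript is long, at 7428 bases. Per kilobase of transcript, mean levels with low glucose were 124 CPM for PHGDH, 108 for SHMT2, 68.0 for PSAT1, 64.7 for MTHFD2, 30.1 for PSPH and 9.93 for ALDH1L2. With high glucose they were 53.5, 58.1, 30.4, 46.8, 17.5 and 3.68 CPM per kilobase in the same order of genes. PHGDH ranked first by this measure with low glucose and SHMT2 with high glucose, an order that was not tested.

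Of the 7 enzymes of asparagine, glutamine, proline and aminotransfer, 5 fell, 1 rose and 1 was not called. ASNS (chr7:97851677-97928441), the asparagine synthetase and a classical ATF4 target, was at 144, 144, 141 and 137 CPM with low glucose and 70.9, 66.9, 63.4 and 64.9 CPM with high glucose. The libraries of each group lay close together and the groups were far apart, with a log2 change of -1.08 ± 0.04 (adjusted p = 2.01e-06). ASNS overlaps a second annotated gene, AC079781.5, in 99.5% of its exon bases, so the split of their reads is uncertain, and that gene was at 4.10 to 7.69 CPM with low glucose and 1.24 to 2.56 CPM with high glucose. With both rows summed, the low over high ratio was 2.14, against 2.12 for ASNS alone.

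PYCR1 (chr17:81932391-81937300), which makes proline in mitochondria, was at 154, 157, 151 and 167 CPM with low glucose and 104, 85.6, 86.3 and 68.2 CPM with high glucose. The high glucose libraries were spread widely, with replicate 1 highest and replicate 4 lowest, but all were below the low glucose range (log2 change -0.88 ± 0.12, adjusted p = 7.69e-04). Of the PYCR1 exon bases, 19.8% overlap a gene on the other strand. BCAT1 (chr12:24810024-24949340), the cytosolic branched-chain aminotransferase, was at 69.1, 71.3, 73.6 and 71.1 CPM with low glucose and 38.1, 42.1, 41.7 and 45.6 CPM with high glucose. It fell 1.70-fold without overlap (log2 change -0.76 ± 0.05, adjusted p = 3.02e-05). GPT2, a mitochondrial alanine aminotransferase, fell 1.23-fold (adjusted p = 0.0171). ALDH18A1, which makes the proline precursor upstream of PYCR1, was 1.08-fold lower with overlapping groups (adjusted p = 0.0308), a call lost in 8 of the 13 alternatives. GOT1, the cytosolic aspartate aminotransferase, rose 1.31-fold from 58.1 ± 2.63 to 76.02 ± 6.29 CPM (SD, n = 4 each, log2 change 0.38 ± 0.06, adjusted p = 0.00198). GLUL, the glutamine synthetase, was at 143 ± 2.85 and 147 ± 3.50 CPM (SD, n = 4 each) and was not called (95% interval -0.01 to 0.10, adjusted p = 0.170).

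The transsulfuration enzymes, which turn homocysteine and serine into cysteine in successive steps, moved in opposite directions. CBS (chr21:43053191-43076873), the first step, was at 139, 140.4, 137 and 137 CPM with low glucose and 80.1, 78.8, 80.2 and 68.5 CPM with high glucose. The low glucose libraries were nearly equal, high glucose replicate 4 was the lowest, and the fall was 1.80-fold (log2 change -0.84 ± 0.05, adjusted p = 1.83e-05). CBS is duplicated in some annotations as CBSL, with 100% of its exon sequence, so the split of reads between CBS and CBSL is uncertain. The CBSL row held 0.278 to 1.23 CPM. With CBS and CBSL summed, the low over high ratio was 1.79, against 1.80 for CBS alone. CTH (chr1:70411268-70439851), the second step, was at 10.9, 13.3, 11.7 and 12.7 CPM with low glucose and 18.6, 19.7, 15.8 and 17.9 CPM with high glucose, with the groups apart and a 1.48-fold rise (log2 change 0.53 ± 0.08, adjusted p = 0.00165).

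**Figure D3:**
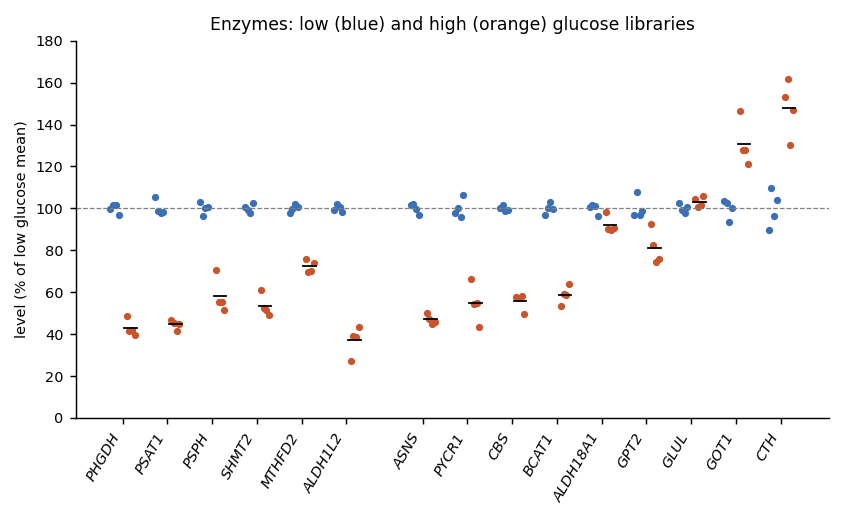
Level of each of the 15 enzymes in each library as a percent of its low glucose mean (y axis, from 0), low glucose in blue, high glucose in orange, with a black bar at the high glucose mean. High glucose means lie between 0.370 times the low glucose mean for ALDH1L2 and 1.48 times for CTH, and GLUL lies near the dashed line at 100%.

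Of the 8 amino acid transporters, 4 fell, 3 rose and 1 was not called. SLC7A11 (chr4:138164097-138242349), the light chain that exchanges cystine for glutamate, was at 82.1, 83.6, 79.2 and 84.6 CPM with low glucose and 36.99, 40.5, 39.4 and 46.1 CPM with high glucose. All high glucose libraries were far below all low glucose libraries (log2 change -1.002 ± 0.06, adjusted p = 2.21e-05). SLC3A2 (chr11:62856109-62888860), the heavy chain CD98 that carries SLC7A11, SLC7A5 and other light chains to the cell surface, was at 258, 261, 259 and 258 CPM with low glucose and 966, 811, 734 and 687 CPM with high glucose. The low glucose libraries were almost equal, the high glucose libraries were spread over a wide range, and the rise was the largest of the 38 genes (log2 change 1.61 ± 0.10, adjusted p = 1.90e-05, 1.51 without high glucose replicate 1). SLC7A5, the light chain LAT1 for leucine and other large neutral amino acids, was at 205, 214, 211 and 217 CPM with low glucose and 214, 221, 208 and 178 CPM with high glucose. The groups overlapped and it was not called (log2 change -0.05 ± 0.07, 95% interval -0.21 to 0.11, adjusted p = 0.606). Per kilobase of transcript, SLC3A2 was at 2.96 times the level of SLC7A5 with low glucose and 9.41 times with high glucose, and at 16.1 and 100.4 times the level of SLC7A11. These ratios describe levels per length and were not tested. Their high glucose means include replicate 1, which had the highest SLC3A2 (966 CPM) and the lowest SLC7A11 (36.99 CPM) of its group.

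SLC7A1 (chr13:29509414-29595688), the carrier of arginine and lysine, was at 87.4, 91.6, 86.6 and 88.3 CPM with low glucose and 115, 129.8, 134 and 130.4 CPM with high glucose. Replicate 1 had the lowest high glucose value and still lay above the low glucose range (log2 change 0.52 ± 0.05, adjusted p = 1.36e-04). SLC38A1 (chr12:46183063-46269043), a sodium-coupled carrier of glutamine, was at 316, 324, 325 and 312 CPM with low glucose and 425, 495, 487 and 532 CPM with high glucose. It rose 1.52-fold, again with replicate 1 the lowest of the high glucose group and no overlap (log2 change 0.60 ± 0.07, adjusted p = 2.86e-04). SLC6A9 (chr1:43996483-44031462), the glycine carrier GLYT1, was at 49.6, 48.9, 53.2 and 56.0 CPM with low glucose and 31.9, 31.7, 29.9 and 27.5 CPM with high glucose, with the groups apart (log2 change -0.76 ± 0.06, adjusted p = 6.64e-05). SLC1A4, an exchanger of alanine, serine and cysteine, fell 1.31-fold (log2 change -0.38 ± 0.03, adjusted p = 3.08e-05). SLC1A5, the glutamine exchanger ASCT2, was 1.15-fold lower with overlapping groups (adjusted p = 0.0234), a call lost in 5 of the 13 alternatives. Of the SLC1A5 exon bases, 27.6% overlap genes on the other strand.

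A further 91 genes of the same pathways were read from 5 lists, of which 29 rose, 30 fell and 32 were not called, with a median log2 change of -0.06. The share called was 64.8%, against 46.8% of all genes. Of the 75 with a mean of at least 5 CPM, 52 were called, against 66.9% of all genes of that level. Of the 18 genes of the eIF2 axis, 7 rose and 9 fell. Of the 17 with a mean of at least 5 CPM, 15 were called. The kinases of eIF2 did not move together. EIF2AK4, known as GCN2, the sensor of uncharged transfer RNA, was at 88.6, 83.8, 87.9 and 84.1 CPM with low glucose and 51.1, 63.5, 61.7 and 66.8 CPM with high glucose (log2 change -0.50 ± 0.08, adjusted p = 0.00173). EIF2AK3, known as PERK, the sensor of the endoplasmic reticulum, was at 33.6, 34.1, 34.6 and 29.8 CPM with low glucose and 39.2, 41.9, 45.4 and 43.5 CPM with high glucose (log2 change 0.36 ± 0.06, adjusted p = 0.00262). EIF2AK4 thus fell and EIF2AK3 rose, both without overlap. EIF2AK1, the heme-regulated kinase, and EIF2AK2, the kinase activated by double-stranded RNA, were not called (95% intervals -0.17 to 0.00 and -0.21 to 0.16). PPP1R15B, the constitutive partner of the eIF2 phosphatase and relative of PPP1R15A, rose 1.85-fold from 95.9 ± 1.74 to 177 ± 6.002 CPM (SD, n = 4 each, adjusted p = 1.60e-06). DNAJC3, an inhibitor of eIF2 kinases and co-chaperone, rose 1.65-fold (adjusted p = 5.37e-06), and EIF2S3, the gamma subunit of eIF2, fell 1.31-fold (adjusted p = 8.92e-06).

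Among 15 other ATF4-linked genes, 5 rose, 5 fell and 5 were not called. Of the 13 with a mean of at least 5 CPM, 10 were called, against 66.9% of all genes of that level. XPOT, the nuclear exporter of transfer RNA, fell 1.67-fold (adjusted p = 3.73e-06) and ADM2, a secreted peptide of the adrenomedullin family, fell 2.23-fold (adjusted p = 1.11e-04), while KLHL24, a ubiquitin ligase adaptor, rose 1.71-fold (adjusted p = 2.99e-05). Among 18 other serine, glycine and folate enzymes and carriers, 7 rose and 4 fell, with a median log2 change of 0.11. Here 15 had a mean of at least 5 CPM, and 9 of these were called. MAT2A, which makes S-adenosylmethionine, rose 1.24-fold (adjusted p = 8.46e-05). MTRR, which reactivates methionine synthase, rose 1.499-fold (adjusted p = 1.30e-04), and SLC25A32, a mitochondrial folate carrier, rose 1.53-fold (adjusted p = 1.50e-04).

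Of 19 other enzymes and carriers of glutamine, proline, aspartate and branched-chain amino acids, 10 fell, and the median log2 change was -0.28. The share called lower was 52.6%, against 24.8% of all genes and 33.3% of genes of at least 5 CPM, a mean that 17 of the 19 reached. PRODH, which degrades proline and thus runs opposite to PYCR1, fell from 11.4 ± 0.997 to 2.48 ± 0.596 CPM (SD, n = 4 each), 4.61-fold (adjusted p = 4.14e-05). BCKDHB, a subunit of the complex that degrades branched-chain keto acids, fell 1.75-fold (adjusted p = 1.71e-04).

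Of 21 other amino acid transporters, 9 rose, 2 fell and 10 were not called, with a median log2 change of 0.17. The share called was 52.4%, against 46.8% of all genes. With a minimum of 5 CPM, 7 were called in place of 11. In the main fit, 7 of the 13 with a mean of at least 5 CPM were called, against 66.9% of all genes of that level. SLC38A2, the adaptive neutral amino acid carrier SNAT2, was at 957, 949.6, 978 and 979.8 CPM with low glucose and 2031, 2072, 2040.3 and 2092 CPM with high glucose. It rose 2.13-fold, with replicates close together and no overlap (adjusted p = 1.56e-06). SLC1A3, a carrier of glutamate and aspartate, rose 2.51-fold from 102 ± 3.27 to 256 ± 18.7 CPM (SD, n = 4 each, adjusted p = 4.20e-06), and SLC6A15, a neutral amino acid carrier, rose 2.02-fold (adjusted p = 1.41e-05). SLC3A1 and SLC7A3 were not analysed here.

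**Figure D4:**
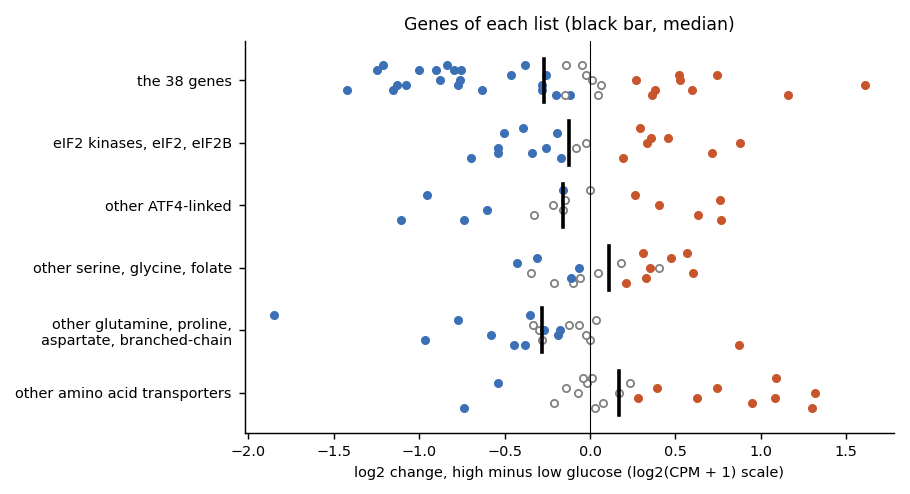
Log2 change of each gene, high minus low glucose on the log2(CPM + 1) scale (x axis), for the 38 genes and 5 further lists (rows), filled where called (blue, lower; orange, higher), with a black bar at each median. Medians run from -0.28 for the glutamine, proline, aspartate and branched-chain list to 0.17 for the other transporters.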

How the data were processed

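RNA was sequenced from 8 libraries of MDA-MB-157 cells, 4 with low and 4 with high glucose, grouped by their labels. The authors deposited 1 table of CPM, scaled with trimmed mean of M values factors from edgeR. The labels name hg38, while the study's methods name hg19 and TopHat for tumors; the aligner, counting tool and use of strand for these libraries are not given in the sources used here. Only 72.0% to 73.3% of low values were whole multiples of 1 read, so whole reads were not recovered and no count test was run. Of 21077 lines, 18 pseudoautosomal Y copies were left out and 21059 genes were tested, 856 of them at 0 in all libraries.

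Values were analysed as log2(CPM + 1) with limma 3.58.1 in R 4.3.3 (eBayes with trend, 2-sided, no covariate, Benjamini-Hochberg over all genes). The fit was also run on simulated data in which few genes changed and no library had a length trend. That run cannot show how the fit performs with the length trend of high glucose replicate 1. Reads per library were estimated from the step of the low values, and floors of 3 reads cover counting error only. The gene list, its roles and the further lists were chosen with earlier results of these data known. Values are given in every library for genes called with an absolute log2 change of at least 0.5 and a mean of at least 1 CPM, and for ATF4, DDIT3, ASNS and SLC7A11. Of each further list, up to 3 genes with the smallest adjusted p and the eIF2 kinases were named. Of the genes this rule selects, 1 is not reported here. Transcript lengths, exon overlap and shared 31-base words came from GENCODE 44 on GRCh37, and gene positions and promoters from RefSeq on GRCh38.p14. Alternatives were a pseudocount of 0.1, a minimum of 5 CPM, median-of-ratios scaling, a replicate block, removal of each library's length trend, and leaving out each library.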

Additional observations from a re-analysis of the deposited data

Results flagged for a closer look

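In 8 of 78 groups of 4 libraries examined (38 genes and the read estimate, in each glucose group), 1 library lay far from the other 3 by Dixon's ratio of gap to range, above its 95% critical value. Chance gives about 3.9 of 78. High glucose replicate 1 was the high library for ATF4 (351 CPM, others 286 to 294), NUPR1 (89.8 CPM, others 68.1 to 71.3) and ALDH18A1 (75.5 CPM, others 68.9 to 69.5). High glucose replicate 4 was low for CBS (68.5 CPM, others 78.8 to 80.2) and high for SLC1A4 (70.8 CPM, others 66.1 to 66.9). At low glucose, PSAT1 was high in replicate 1 (158 CPM, others 147 to 148) and SLC3A2 in replicate 2 (261 CPM, others 258 to 259), the latter within a narrow range. The estimated reads of low glucose replicate 4 were 12104248, above the 10389649 to 10622964 of the other low glucose libraries. None of these libraries ended the call of ATF4, NUPR1, CBS, SLC1A4, PSAT1 or SLC3A2 when left out. ALDH18A1 lost its call without 6 of the 8 libraries, but not without high glucose replicate 1.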

How the results depend on the processing

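Over 13 alternatives, 461 of 493 values of the 38 genes kept their direction and side of the threshold, 21 lost the call, 3 gained one and 8 changed sign. The sign changes were in genes that were not called: DDIT3 was at 0.0182 with median-of-ratios scaling, 0.0980 with the length trend removed, and -0.0735 to 0.00789 with a library left out; JDP2 was at -0.00327 with the length trend removed and -0.0215 to 0.0298 with a library left out; and SLC7A5 at -0.0861 to 0.0178 with a library left out. Of the 38 genes 31 were called, and 30 with median-of-ratios scaling, 29 with a replicate block, 32 with the length trend removed and 28 to 31 with a library left out. SESN2 lost its call (adjusted p = 0.0583 to 0.0871) under median-of-ratios scaling, the replicate block, and without any low glucose library or high glucose replicate 2 or 3. ALDH18A1 lost it (adjusted p = 0.0549 to 0.114) under that scaling, the block, and without low glucose replicates 1, 2 or 3 or high glucose replicates 2, 3 or 4. SLC1A5 lost it (adjusted p = 0.0582 to 0.0629) without low glucose replicates 1 or 2 or high glucose replicates 2, 3 or 4. The cause was not tested. STC2 gained a call with the length trend removed and without low glucose replicate 1, and GLUL with median-of-ratios scaling. Same-numbered libraries did not deviate together (correlations -0.0403 to 0.0692), and the main fit used no pairing. These deviations include the length trend of high glucose replicate 1, so they cannot show whether the replicates were paired. With a minimum of 5 CPM, the other amino acid transporters called numbered 7 in place of 11, since fewer were tested.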
